A study of Homo sapiens with 6 samples.

Results

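The genes described here are regulators of mTOR signalling in MB157 cells, a long-used human cell line that the labels class as triple-negative breast cancer. They are 9 rows of the deposited count tables, taken by symbol: DDIT4, DEPTOR, RRAGC, MTOR, RPTOR, TSC2 and RHEB, with DDIT4-AS1 and DEPTOR-AS1, whose exons overlap DDIT4 and DEPTOR on the other strand. A further 6 rows overlap an exon of MTOR, RPTOR or TSC2 on the other strand, which makes 15 rows of 57209. The measured change between the groups took part in the choice: DDIT4, DDIT4-AS1, DEPTOR-AS1 and RRAGC were picked because they differed, so their differences are given as a description and without a p-value. The study compared MB157-Cas9 cells that received a control sgRNA with cells that received an sgRNA against SOX9, a transcription factor, to find genes that depend on it. Cells of both groups were grown in DMEM with serum and puromycin, were collected after 4 days and were sorted for the 50% with the highest sgRNA expression. The series describes the line as stably expressing SOX9, whereas the titles name Cas9. Each group held 3 libraries that the labels call technical replicates, so the spread given below is that between libraries of 1 experiment, and whether the edited cells were a pool or a clone is not stated in the labels.

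mTOR is a kinase that sits in a pair of complexes and couples growth to nutrients, growth factors and stress. In complex 1 it works with the scaffold raptor, encoded by RPTOR, and is switched on at the lysosome by the GTPase RHEB, while heterodimers of Rag GTPases, one of which holds the product of RRAGC, bring the complex there when amino acids are present. TSC2, with TSC1, turns RHEB off. DDIT4, also called REDD1, is induced by hypoxia, glucocorticoids and other stresses and acts through TSC to restrain complex 1, and DEPTOR binds mTOR in both complexes and inhibits it.

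The libraries held 776125 to 1018854 counts each, and the SOX9 sgRNA libraries detected 20207 to 21082 rows against 18326 to 18818 in controls. SOX9 itself, the targeted gene, had 38, 52 and 44 counts in control libraries 1 to 3 and 37, 39 and 60 in SOX9 sgRNA libraries 1 to 3, a log2 fold change of -0.22 (SE 0.26) that was not past the threshold. A transcript count does not read the edit itself, and whether the SOX9 row holds SOX9 mRNA was not tested. Of 7959 genes tested with edgeR's quasi-likelihood test, 9.01% were past an adjusted p of 0.05, 238 higher and 479 lower. Scaling by library totals in place of TMM factors gave 625 higher and 249 lower, and the median over all genes tested went from 0.01 to 0.19 on the log2 scale. Epithelial markers (EPCAM, KRT8, KRT18, KRT19 and CDH1) summed to 668 to 822 counts in controls and 674 to 919 with the SOX9 sgRNA. The endothelial markers CDH5 and VWF were at 0 in every library, and the fibroblast markers summed to at most 6. CD3E was at 0 in every library and PTPRC had 1 count in 1 of the 6 libraries, while the hormone receptor genes ESR1 and PGR had at most 7 counts in any library and ERBB2, which encodes HER2, had 141 to 213. CDH5, VWF, the fibroblast markers, CD3E, PTPRC, ESR1 and PGR have no row on the other strand. Counts from that strand could not be read for them, so their low values do not show that the mRNA was absent. In bulk samples such as these, fewer cells with a transcript and less of it per cell cannot be told apart.

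The promoters of DDIT4 and RRAGC are shown because these were the gene with the lowest and the gene with the highest difference among the listed genes. RefSeq promoters (GRCh38.p14) were matched for 6 of the 9 rows. The 250 bases before each start are given in the direction of the gene, with capitals marking matches, on either strand, to the hypoxia response element core (ACGTG or GCGTG) and to the E-box CACGTG. The E-box, which holds the first of these cores on both strands, was added after the sequences had been seen. DDIT4 lies at chr10:72273674-72273923, plus strand, and RRAGC at chr1:38859773-38860022, minus strand.
DDIT4: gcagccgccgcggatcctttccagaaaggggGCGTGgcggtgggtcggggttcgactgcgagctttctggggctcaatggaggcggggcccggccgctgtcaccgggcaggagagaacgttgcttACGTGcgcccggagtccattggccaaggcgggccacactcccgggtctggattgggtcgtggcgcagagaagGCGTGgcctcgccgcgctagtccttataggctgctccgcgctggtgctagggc
RRAGC: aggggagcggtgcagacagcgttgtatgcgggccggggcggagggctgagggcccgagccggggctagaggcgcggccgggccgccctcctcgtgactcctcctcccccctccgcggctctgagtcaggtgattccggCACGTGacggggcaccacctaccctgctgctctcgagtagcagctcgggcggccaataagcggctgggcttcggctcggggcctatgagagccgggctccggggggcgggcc
The DDIT4 window held ACGTG once, 125 to 121 bases before the start, and GCGTG at 219 to 215 and at 53 to 49 bases before it. The RRAGC window held CACGTG once, 112 to 107 bases before the start. Either hypoxia core was present in 43.2% of 35116 promoters of the same length, and CACGTG in 6.3%. The SOX cores ACAAAG and ACAATG, of which at least 1 was present in 21.2% of promoters, and the C/EBP-ATF element TGATGNAA, present in 3.1%, had no match in either window. GC content was 68.8% for DDIT4 and 73.6% for RRAGC, with a median of 58.0% over all promoters. A match shows only that the letters are there.

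DDIT4 (ENSG00000168209) covers chromosome 10 from 74033678 to 74035794 on the plus strand of GRCh37, the build of the count tables. The row named DDIT4-AS1 (ENSG00000269926, 74034673 to 74035738, minus strand) is an antisense gene with 847 bp of exon, all of it inside DDIT4 exons. In GENCODE 29, 271 bp of that overlap lie over DDIT4 coding sequence and 576 bp over noncoding exon sequence. DEPTOR (ENSG00000155792, chromosome 8, 120885957 to 121063152, plus strand) and DEPTOR-AS1 (ENSG00000245330, 120879659 to 120886728, minus strand) overlap at their starts and run in opposite directions. They share 252 bp, the whole first annotated exon of DEPTOR but 13.0% of the 1945 bp of DEPTOR-AS1 exon. RRAGC (ENSG00000116954, chromosome 1, 39303870 to 39325495, minus strand) has no exon on the other strand, and the row RRAGC-DT starts 177 bp away in the other direction.

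**Figure D1:**
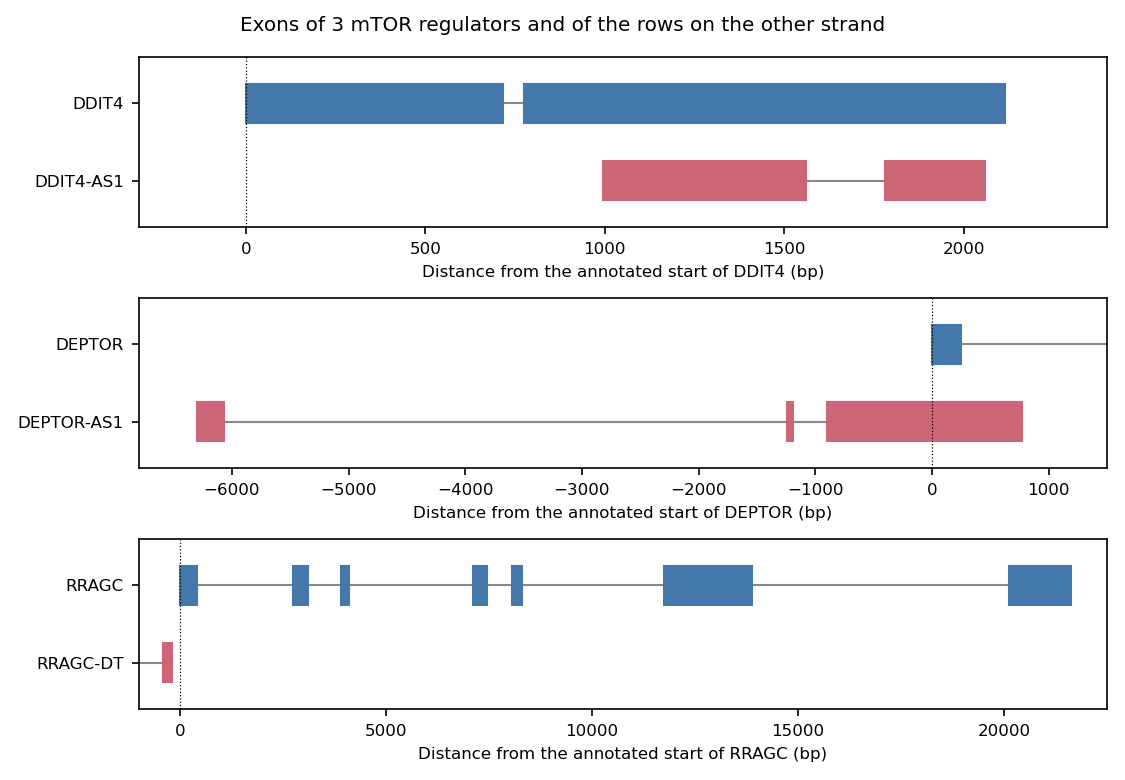
Exons (boxes) of DDIT4, DEPTOR and RRAGC (blue) and of the row on the other strand (red), by distance in bp from the annotated start of each gene (dotted line). DDIT4-AS1 lies wholly over DDIT4 exons, DEPTOR-AS1 covers the first DEPTOR exon and the sequence before it, and RRAGC-DT shares no exon sequence with RRAGC; only the near part of DEPTOR and of RRAGC-DT is drawn.

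Counts at the DDIT4 locus were lower with the SOX9 sgRNA on both strands. DDIT4-AS1 had 571, 592 and 523 counts in control libraries 1 to 3 and 222, 198 and 242 in SOX9 sgRNA libraries 1 to 3. In CPM, the count relative to the TMM-scaled library total, this was 762, 752 and 752 against 267, 257 and 236. The control libraries lay within a narrow band and every SOX9 sgRNA library was far below it, with means of 755 ± 6.04 and 253 ± 16.3 CPM (SD, n = 3 each). It was 2.99-fold lower, or -1.58 on the log2 scale (SE 0.10). DDIT4's own row held 42, 19 and 41 counts against 8, 15 and 7, or 24.1 to 58.9 against 6.81 to 19.5 CPM. This was 3.94-fold lower, with a log2 fold change of -1.98 (SE 0.39). The groups did not overlap, but control library 2 (24.1 CPM) and SOX9 sgRNA library 2 (19.5 CPM) lay close to each other, and this row passed the filter on low counts through its control libraries alone. Without SOX9 sgRNA library 2 the value was -2.49, and without SOX9 sgRNA library 3 it was -1.67.

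Most counts of the DDIT4 locus lay on the row DDIT4-AS1 in both groups. It took 94.3% ± 2.29 of the summed counts of the pair in controls and 95.6% ± 2.27 with the SOX9 sgRNA (SD, n = 3 each), and over the 6 libraries the share ran from 92.7% to 97.2%. Per kb of exon, the level of DDIT4-AS1 was 39.6 times that of DDIT4 in controls and 51.4 times with the SOX9 sgRNA. Whether the ratio of the strands differed between groups was not tested. With the rows added together, the locus held 613, 611 and 564 counts in controls against 230, 213 and 249, a log2 fold change of -1.60 (SE 0.10). The tables keep counts apart by strand under featureCounts strand setting 1, and whether the DDIT4-AS1 row holds antisense RNA or DDIT4 mRNA was not tested. The lean to the other strand was not particular to DDIT4. Among 37 pathway genes facing exactly 1 row, that row had the higher CPM in controls for 27.

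DEPTOR, the inhibitory subunit, had almost no counts under its own name: 1, 2 and 3 in control libraries 1 to 3 and 3, 0 and 0 in SOX9 sgRNA libraries 1 to 3. The groups overlapped, the row did not pass the filter on low counts, and no difference was detectable at this depth. DEPTOR-AS1, which overlaps its start on the other strand, had 69, 85 and 53 counts against 40, 30 and 23, or 92.1 ± 15.9 against 36.5 ± 13.1 CPM (SD, n = 3 each). All control libraries (76.2 to 108 CPM) were above all SOX9 sgRNA libraries (22.4 to 48.2 CPM), with a log2 fold change of -1.36 (SE 0.26), or 2.56-fold lower. The spread within groups was wider than for DDIT4-AS1, and SOX9 sgRNA library 3, the lowest, moved the value most: without it the log2 fold change was -1.08. Which part of DEPTOR-AS1 its counts fall in, the stretch that faces DEPTOR or the rest, was not tested.

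RRAGC, the Rag GTPase, was the listed gene that rose. Its row held 4, 5 and 7 counts in control libraries 1 to 3 and 31, 20 and 13 in SOX9 sgRNA libraries 1 to 3. The groups did not overlap, with 5.34 to 10.1 CPM in controls and 12.7 to 37.3 CPM with the SOX9 sgRNA, but control library 3 and SOX9 sgRNA library 3 were close. Means were 7.25 ± 2.49 and 25.3 ± 12.4 CPM (SD, n = 3 each), a log2 fold change of 1.78 (SE 0.51). The row passed the filter on low counts through the SOX9 sgRNA libraries alone, which favours a difference in this direction. It was no longer past the threshold without control library 1 (1.59) or 2 (1.68) or without SOX9 sgRNA library 1 (1.38) or 2 (1.75). RRAGC-DT, the noncoding row that starts next to it, had 40, 34 and 19 counts against 55, 51 and 26, and its groups overlapped (log2 fold change 0.32, SE 0.31).

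The core of the pathway had low counts and overlapping groups. MTOR, the kinase, had 18, 20 and 30 counts in controls and 13, 23 and 34 with the SOX9 sgRNA, a log2 fold change of -0.21 (SE 0.35) whose sign turned positive without control library 3 (0.08) or SOX9 sgRNA library 1 (0.04). RPTOR, the scaffold of complex 1, had 24, 25 and 10 against 16, 10 and 26 (log2 fold change -0.43, SE 0.39). TSC2, which turns RHEB off, had 33, 38 and 34 against 63, 31 and 86, with 2 of the 3 SOX9 sgRNA libraries above all controls and the other below them (log2 fold change 0.52, SE 0.27). RHEB, the activating GTPase, had 2, 4 and 0 against 10, 2 and 1 and was too low to be tested. None of these 4 genes was past the threshold, and the SEs of the 3 that were tested, 0.27 to 0.39, set the size of change that could be seen at this depth. In controls, a row on the other strand took 78.8% of a pair's counts for MTOR and 71.3% to 83.9% for RPTOR. TSC2 went the other way, with 13.5% and 25.2%. Whether these 4 rows hold the mRNA of their genes was not tested.

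Rows on the other strand of MTOR, RPTOR and TSC2 did not pass the threshold either. MTOR-AS1 (ENSG00000225602), which shares 220 bp with MTOR, had 82, 124 and 65 counts in controls against 107, 125 and 119 (log2 fold change 0.16, SE 0.18). The rows opposite RPTOR gave -0.25 for ENSG00000262662 (SE 0.18), 0.09 for ENSG00000262313 (SE 0.21) and 0.27 for ENSG00000261924 (SE 0.23). PKD1, which meets the end of TSC2 over 6 bp and encodes polycystin 1, gave 0.43 (SE 0.42), and NTHL1, a DNA repair gene that starts opposite TSC2, was not tested. In all, 7 of the 9 listed rows passed the filter on low counts and 4 of these were past the threshold, beside 9.01% of all genes tested. Of the 4, 3 were lower (6.02% of all genes tested) and 1 was higher (2.99%), each by 2-fold or more (1.72% lower and 1.39% higher over all genes). Since the contrast chose the members, nothing is read from these counts.

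**Figure D2:**
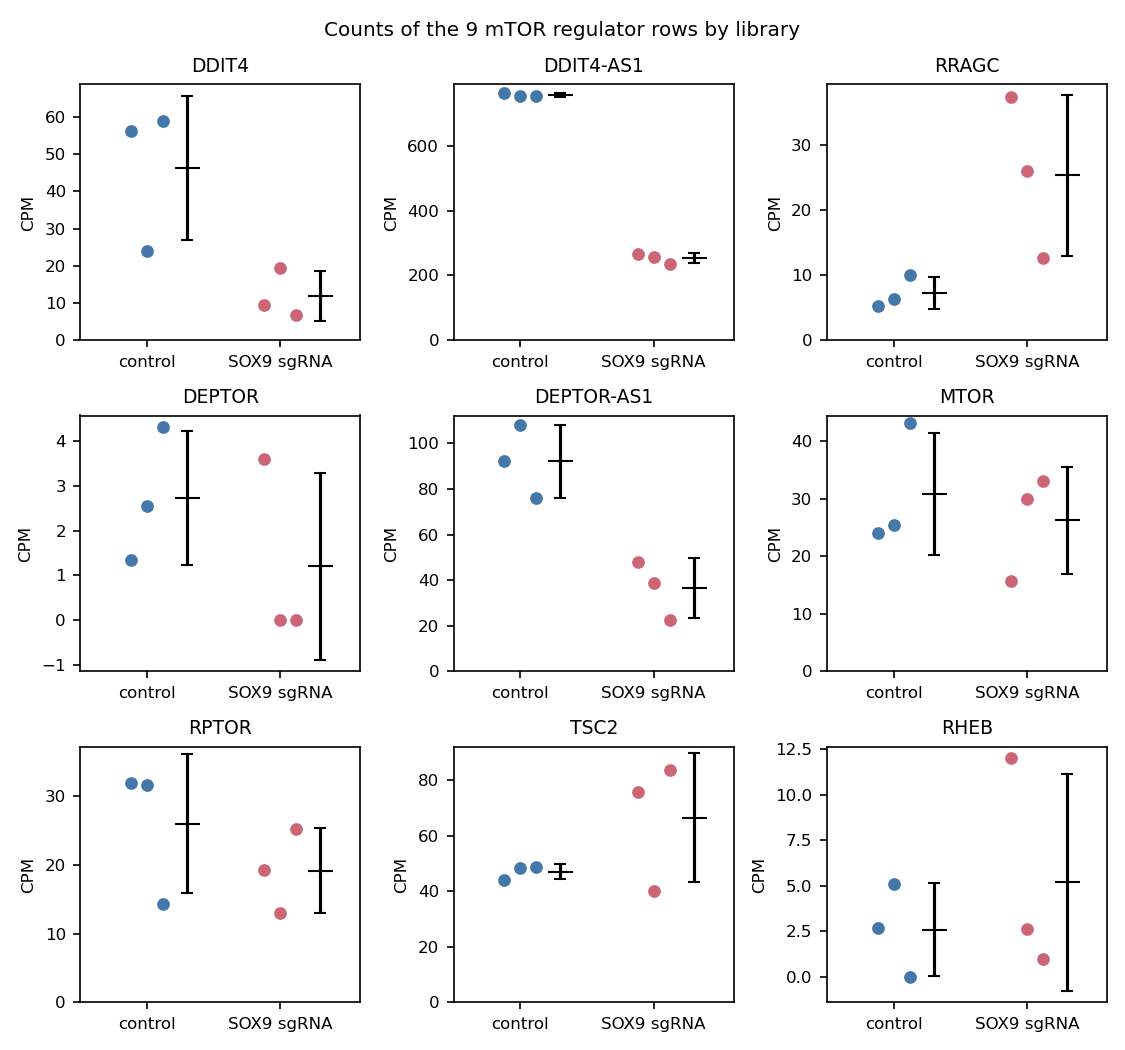
CPM of the 9 listed rows in each of the 6 libraries (points, replicates 1 to 3 from left to right in each group), with the mean and SD of 3 libraries beside them (black). DDIT4, DDIT4-AS1 and DEPTOR-AS1 are lower in all 3 SOX9 sgRNA libraries and RRAGC is higher, while the other 5 rows overlap; the vertical scale differs between panels.

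Levels per length differed widely within the list. In controls DDIT4-AS1 stood at 892 ± 7.13 CPM per kb of exon, followed by DEPTOR-AS1 at 47.3 ± 8.16, DDIT4 at 22.5 ± 9.39 and TSC2 at 4.23 ± 0.236 (SD, n = 3 each), and the library ranges of these neighbours did not overlap. RPTOR (2.78 ± 1.08) and MTOR (2.55 ± 0.879) did not differ beyond their spread, nor did RRAGC (1.40 ± 0.482), DEPTOR (1.04 ± 0.571) and RHEB (0.731 ± 0.719), each beside its neighbour. With the SOX9 sgRNA, DDIT4-AS1 (299 ± 19.2) and DEPTOR-AS1 (18.8 ± 6.72) kept the first places. DDIT4 (5.82 ± 3.24), TSC2 (5.99 ± 2.08) and RRAGC (4.90 ± 2.39) then had overlapping library ranges.

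**Figure D3:**
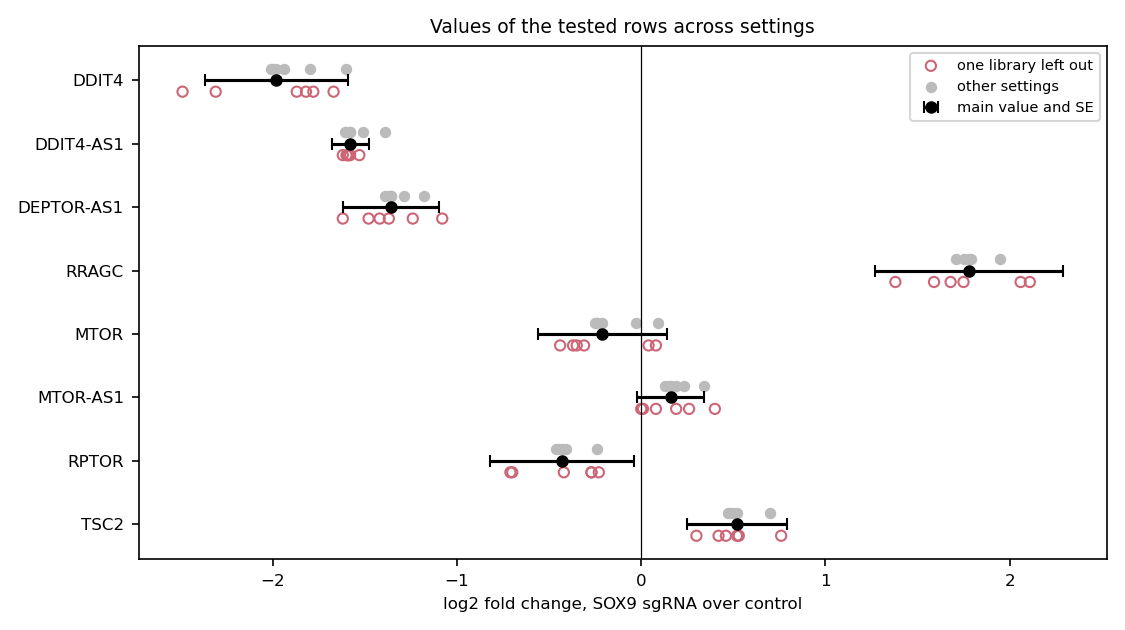
Log2 fold change of 8 tested rows, SOX9 sgRNA over control, as reported (black, with SE), with 1 library left out (open red) and under the other settings (grey). For DDIT4 and MTOR the grey points include the sum of both strands. DDIT4, DDIT4-AS1 and DEPTOR-AS1 stay below 0 and RRAGC above 0 in every fit shown, from -2.49 for DDIT4 to 2.11 for RRAGC, while the values of MTOR lie on both sides of 0.

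The genes whose counts moved most like those of the listed rows were found by the root mean square difference of centred log2 CPM over the 6 libraries, a description without a test. For DDIT4-AS1, among 2455 rows that averaged 6 or more in log2 CPM, the nearest were VIM-AS1 (0.08), ENSG00000234961 (0.11), ENSG00000254208 (0.11) and VIM (0.16), where the median of all candidates was 0.78. VIM encodes vimentin, an intermediate filament protein, and VIM-AS1 and ENSG00000234961 lie opposite it. For DEPTOR-AS1 the nearest were ENSG00000259001 (0.23), RMRP (0.24), the RNA of an RNA-processing enzyme, ENSG00000258486 (0.26) and COL4A2-AS2 (0.26). For RRAGC, among 7958 rows that averaged 3 or more, they were ZFP41 (0.09), MAPK15 (0.20), PLIN4 (0.26) and C9orf163 (0.29). ZFP41 had 3, 4 and 6 counts in controls and 27, 19 and 13 with the SOX9 sgRNA. These counts were as low as those of RRAGC, while PLIN4 had 15 to 73.

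The rest of the pathway was read from a list of 94 genes in 9 groups by role, of which 93 matched a row. Outside the listed members, 34 of 86 genes passed the filter on low counts. Of these, edgeR's test found 0 higher and 0 lower, beside 9.01% called over all genes tested. At an unadjusted edgeR p under 0.05 there was 1 of the 34, beside 1632 of all 7959 genes tested. DESeq2 also called 0. The median log2 fold change of the 34 was 0.05, beside 0.01 over all genes tested, and the range ran from -0.91 to 0.66. Groups did not overlap for 14.7% of them, beside 24.5% of all genes tested. These values are of each gene's own row, and whether that row holds the gene's mRNA was not tested.

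Among the subunits of the complexes, MLST8, shared by both, gave -0.06 (SE 0.33) and AKT1S1, an inhibitory partner in complex 1, -0.48 (SE 0.35). LAMTOR4, of the Ragulator that anchors Rag GTPases to the lysosome, had a mean of 60.5 CPM in controls and 45.2 CPM with the SOX9 sgRNA (n = 3 each, log2 fold change -0.44, SE 0.27, edgeR adjusted p = 0.376). RRAGC was the only Rag GTPase gene tested, as RRAGA, RRAGB and RRAGD had at most 13 counts in any library. Of the GATOR and KICSTOR complexes, which relay amino acid supply to the Rag GTPases, 7 of 12 genes were tested with values between -0.49 and 0.48, and the most abundant, ITFG2, stood at 365 ± 24.2 against 361 ± 38.9 CPM (SD, n = 3 each). SESN3, a sestrin that restrains complex 1, had the lowest value of the list outside the members: 23, 24 and 24 counts against 16, 6 and 23, or -0.91 (SE 0.38, edgeR adjusted p = 0.140).

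**Figure D4:**
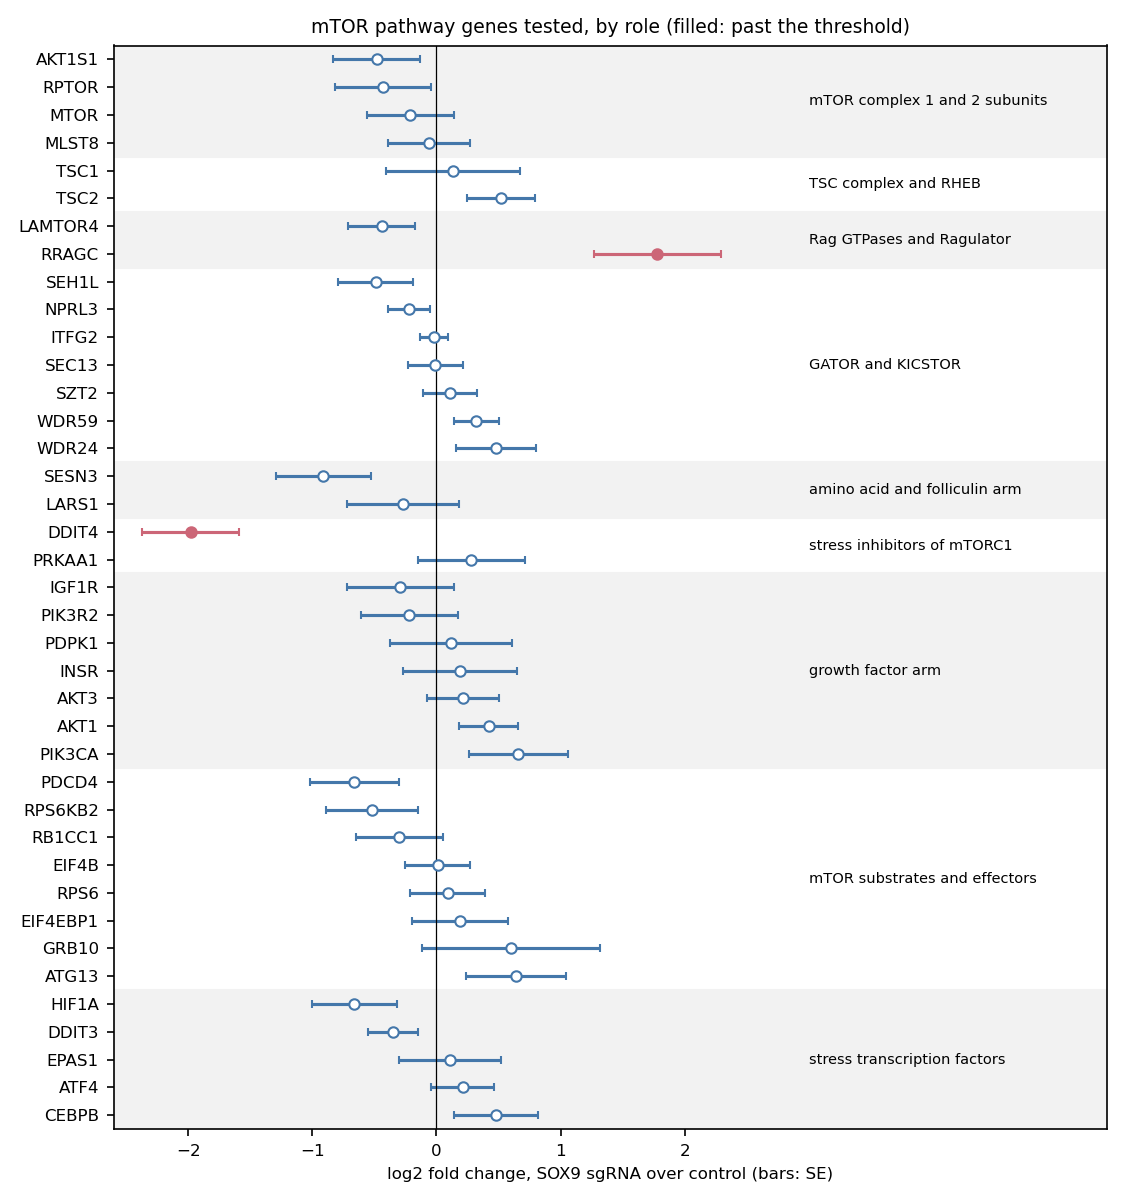
Log2 fold change with SE of the 39 pathway genes that were tested, members included, grouped by role, SOX9 sgRNA over control. DDIT4 (-1.98) and RRAGC (1.78), picked because they differed, are the filled points, past the threshold, and the other 37 lie between -0.91 and 0.66.

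Upstream and downstream genes gave values between -0.66 and 0.66, and none was past the threshold. These too are values of each gene's own row, and whether that row holds the gene's mRNA was not tested. In the growth factor arm, 7 of 14 genes were tested, from -0.29 for the receptor gene IGF1R to 0.66 for PIK3CA, and AKT1, the kinase that phosphorylates TSC2, gave 0.42 (SE 0.24, edgeR adjusted p = 0.333). Among substrates and effectors, 8 of 16 were tested, from -0.66 for the translation inhibitor gene PDCD4 to 0.64 for the autophagy gene ATG13, and EIF4B, an initiation factor, gave 0.01 (SE 0.26). Of 7 stress transcription factors, several of which are known to induce DDIT4, 5 were tested: HIF1A gave -0.66 (SE 0.34, edgeR adjusted p = 0.255), ATF4 0.21 (SE 0.25) and DDIT3, the most abundant, -0.35 (SE 0.20, edgeR adjusted p = 0.329).

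For many pathway genes, as for DDIT4, DEPTOR and MTOR, more counts lay on the other strand than on their own. Of 93 genes, 46 had an exon on the other strand, 37 of them facing exactly 1 row, and in 27 of these 37 pairs that row had the higher CPM in controls. Per kb of exon the median level in controls was 1.42 CPM over all 93 pathway genes. It was 21.1 CPM over the rows opposite the 46, so these medians are not of matched sets. Genes with no exon on the other strand could be low as well, such as RHEB with a mean of 3.89 CPM over all libraries and RRAGA with 10.8 CPM. For such genes no row could hold counts from the other strand, so these could not be read. Why their own rows were low was not tested.

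**Figure D5:**
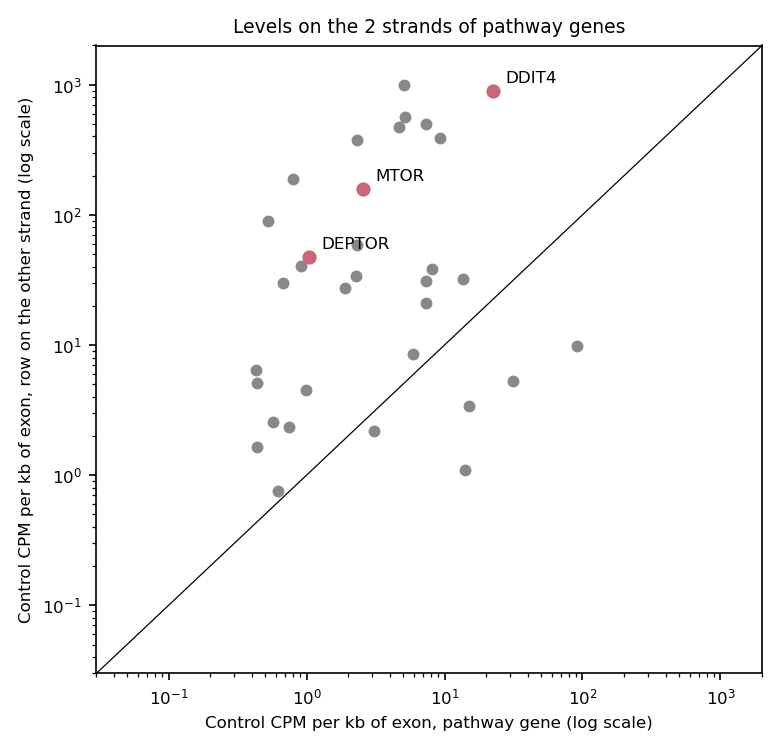
Control level in CPM per kb of exon of pathway genes (horizontal) and of the single row on the other strand (vertical), both on log scales, for 33 of 37 pairs; 4 pairs with a 0 are not drawn. In 28 of the 33 the row on the other strand is higher (above the line), among them the rows opposite DDIT4, MTOR and DEPTOR (red).

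Rows opposite the other pathway genes were read as well, a choice made after seeing the data. Of 49 such rows 37 were tested, with 5 lower and 1 higher, or 16.2%, beside 11.3% of all tested genes that have an exon on the other strand. With library totals 1 was lower and 5 were higher, so the balance of directions depended on scaling. HIF1A-AS1, which shares 117 bp with HIF1A, the hypoxia factor, fell from 328 ± 38.4 to 211 ± 14.0 CPM (SD, n = 3 each, log2 fold change -0.63, SE 0.13, edgeR adjusted p = 1.48e-04). MARS1, the methionyl-tRNA synthetase gene that shares 355 bp with DDIT3, rose from 68.6 ± 5.71 to 141 ± 17.9 CPM (SD, n = 3 each, log2 fold change 1.04, SE 0.19, edgeR adjusted p = 5.96e-05). These calls held in all 12 alternative fits for each of both rows. The p-values rest on libraries of 1 experiment that the labels call technical replicates, so they do not measure the spread between experiments. The other 4 falls were those of RPS6KB2-AS1 (-0.44), ENSG00000251556 opposite LARS1 (-0.54), LAMTOR5-AS1 (-0.58) and BRICD5 opposite MLST8 (-0.83), each lost with library totals and when some single libraries were left out. The call of BRICD5 (edgeR adjusted p = 0.0497) was also lost with DESeq2, without a filter and with the replicate block, in all in 8 of 11 alternatives.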

How the data were processed

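Total RNA from 6 MB157 libraries was sequenced from a SMARTer kit for low input that keeps strand, per the labels' protocols. The authors deposited counts of fragments per gene, without normalization; the tools were STAR 2.7.10a for alignment and, for counting, featureCounts (Subread 1.6.2), per the submitters' processing notes. Per the file headers, exons of Ensembl GRCh37 release 75 were counted with strand setting 1, and a fragment could count for every gene it overlapped. The recorded command has no option that adds multi-mapped reads, and exons of ribosomal and mitochondrial genes were left out of the annotation. This did not take out every ribosomal protein gene, as RPS6 had a row and was tested.

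Gene names were taken from an identifier table and GENCODE 29, which is on another build; RefSeq uses the name DDIT4-AS1 for another span, and the row meant here is ENSG00000269926. The test was that of edgeR 4.0.16 under R 4.3.3 (filterByExpr, TMM factors, robust quasi-likelihood fit, no covariates), with Benjamini-Hochberg adjustment over all genes tested. SEs were derived from the F statistic. CPM refers to the total over tested genes, scaled by TMM factors. Exon overlaps were found with bedtools 2.31.1. DESeq2 1.42.0 was an alternative, beside library totals, no filter, at least 50 counts in 3 libraries, a fit without robust weights, a replicate block, each library left out and summed strands. The procedure was tested on simulated counts. Members and lists were chosen with earlier results of these data known. Named are all members, the rows opposite them, pathway genes past the threshold, the most abundant gene of each role and the 4 rows nearest in pattern; AKT1S1, HIF1A, ATF4, SESN3, IGF1R, PIK3CA, PDCD4, ATG13 and the rows opposite other pathway genes were named after their values were seen.

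The numbers of the labels do not pair the libraries: same-numbered libraries deviated from their group means with correlations of -0.003, 0.019 and -0.011. Libraries within a group varied beyond counting error (chi-square per degree of freedom 1.95 to 2.47).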

Additional observations from a re-analysis of the deposited data

How the results depend on the processing

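DDIT4, DDIT4-AS1, DEPTOR-AS1 and RRAGC were picked because they differed in these same libraries. Their calls below therefore describe only how the settings moved the values and lend the differences no support. DDIT4, DDIT4-AS1 and DEPTOR-AS1 kept their direction and stayed past the threshold in all 12 alternatives that each could be given. Log2 fold changes were -2.49 to -1.60, -1.62 to -1.39 and -1.62 to -1.08. For DDIT4 the 12 include the sum of both strands, most of it DDIT4-AS1 counts, which gave the -1.60. DDIT4's own row ran from -2.49 to -1.67. RRAGC kept its direction in 11 alternatives and lost its call in 4, all with 1 library left out, over a range of 1.38 to 2.11. With at least 50 counts in 3 libraries, DDIT4, RRAGC, RPTOR, MTOR, TSC2 and PKD1 were no longer tested. The summed strands of DEPTOR gave -1.35 (SE 0.26) and those of MTOR 0.09 (SE 0.16). No other tested member or row opposite a member crossed the threshold in any alternative, though MTOR and ENSG00000262313 changed sign in some. Genes higher numbered 625 with library totals and 151 without a filter, and genes lower 249 with library totals; leaving out a library gave 161 to 207 and 364 to 430. With the replicate number as a block, 175 genes were higher and 399 lower, and no call of DDIT4, DDIT4-AS1, DEPTOR-AS1 or RRAGC changed; not every library deviated most like its own number. Rows opposite other pathway genes gave 5 higher and 1 lower with library totals, 3 higher with the stricter filter, and 1 to 2 higher and 2 to 5 lower with a library left out. Of the other pathway genes 0 were called in any alternative. The cause was not tested for any of these. At these depths, rows with fewer than about 10 counts per library, among them DEPTOR and RHEB, could not be compared.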

Other observations

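DDIT4L, a paralog of DDIT4 that also restrains complex 1, had counts only with the SOX9 sgRNA and was picked out after its values were seen. DDIT4L (ENSG00000145358, chromosome 4, 101107027 to 101111939, minus strand, GRCh37) had 0 counts in every control library and 6, 2 and 2 in SOX9 sgRNA libraries 1 to 3. DDIT4L-AS1, which shares 42 bp of exon with it on the other strand, had 0 in every control library and 7, 3 and 3. Against a floor of 3 counts over the control group, the observed level was 2.83-fold higher for DDIT4L and 3.68-fold higher for DDIT4L-AS1. The counting error of the SOX9 sgRNA counts was left out, so these ratios are not lower limits. Neither row passed the filter on low counts, so neither was tested. Of 57209 rows, 69 were at 0 in all controls with at least 2 counts in each SOX9 sgRNA library, and 17 had the reverse pattern, where SOX9 sgRNA libraries also detected more rows in all.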
